A study of Mus musculus with 6 samples.

Results

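The 39 genes that encode subunits and activators of the proteasome were followed in RNA from whole mouse testes. They were taken from the deposited table of 53700 genes by symbol: 8 of the alpha ring, 7 of the standard beta ring, 3 immune beta subunits, 6 ATPases and 11 non-ATPase subunits of the cap, and 4 activators. All 39 symbols matched 1 gene each, and all 39 had enough reads to be tested. The study compared 3 mice with the Msl3 wild-type genotype (WT) with 3 mice labelled as conditional knockouts of a floxed Msl3 allele (cKO), 1 library per mouse. All 6 mice were at postnatal day 45 and share the strain label Msl3em1Forni/C57BL/6J. Msl3 lies on the X chromosome and encodes a chromatin reader of the male-specific lethal complex. The recombinase that would delete the allele, and the cells it acts in, are not given in the sources used here.

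The proteasome degrades proteins that carry a ubiquitin tag. Its 20S core is a barrel of outer alpha rings and inner beta rings, with the protein-cutting sites on the beta subunits Psmb5, Psmb6 and Psmb7. The 19S cap binds, unfolds and feeds in the tagged proteins, and the PA28 and PA200 activators can take the place of the cap. Cells exposed to interferon replace the cutting subunits with the immune forms Psmb8, Psmb9 and Psmb10. Male germ cells replace the alpha subunit Psma7 with Psma8, and their development also depends on PA200, encoded by Psme4, which is linked to the removal of acetylated histones in spermatids.

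Libraries held 56991431 to 73766444 reads assigned to genes, of which 0.521% to 0.577% fell on the 39 genes. Msl3 itself did not differ detectably between the groups, with 942, 1226 and 990 reads in the WT libraries and 1170, 829 and 923 in the cKO libraries (log2 fold change -0.12, SE 0.088, edgeR adjusted p = 0.551). Gene counts cover all exons of Msl3, so a deletion of part of the gene is not tested by them, and higher or lower here always compares the cKO label with the WT label. The library labelled cKO 2 was low for many of the proteasome genes. It was the lowest of the 6 libraries for 28 of the 39 genes, and 34 of the 39 lay below their own mean over the 6 libraries there. The same counts over all genes tested are not given here, and cKO 2 was also low for some lists of cell type markers.

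No proteasome subunit gene passed an edgeR adjusted p of 0.05, where 4 of 21902 genes tested did (0.0183%). The lowest adjusted p among the 39 was 0.288, for Psma6. Psma6 and Psma8 passed in edgeR when no filter on low counts was used, where 2.07% of genes were called, and Psma6 alone passed with a replicate block (0.224% of genes called) and in DESeq2 (1.64%). At an unadjusted p under 0.05, 7 of the 39 were lower in the cKO libraries, where 6.54% of all genes tested were: Psma3, Psma6, Psma7, Psma8, Psmb1, Psmb6 and Psmd14. None of the 39 was higher at that limit, where 7.33% of all genes tested were, but 1 was without WT 1 or without cKO 1. The count of 7 rested on single libraries: it was 2 without WT 2, 3 without WT 3 or without cKO 2, 4 without cKO 3, and 8 without WT 1 or without cKO 1. In 5 of the 39 genes the WT and cKO libraries did not overlap (Psma1, Psma3, Psmb1, Psmb6 and Psmd14), all lower in cKO, where 8.85% of all genes tested were lower without overlap.

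**Figure D1:**
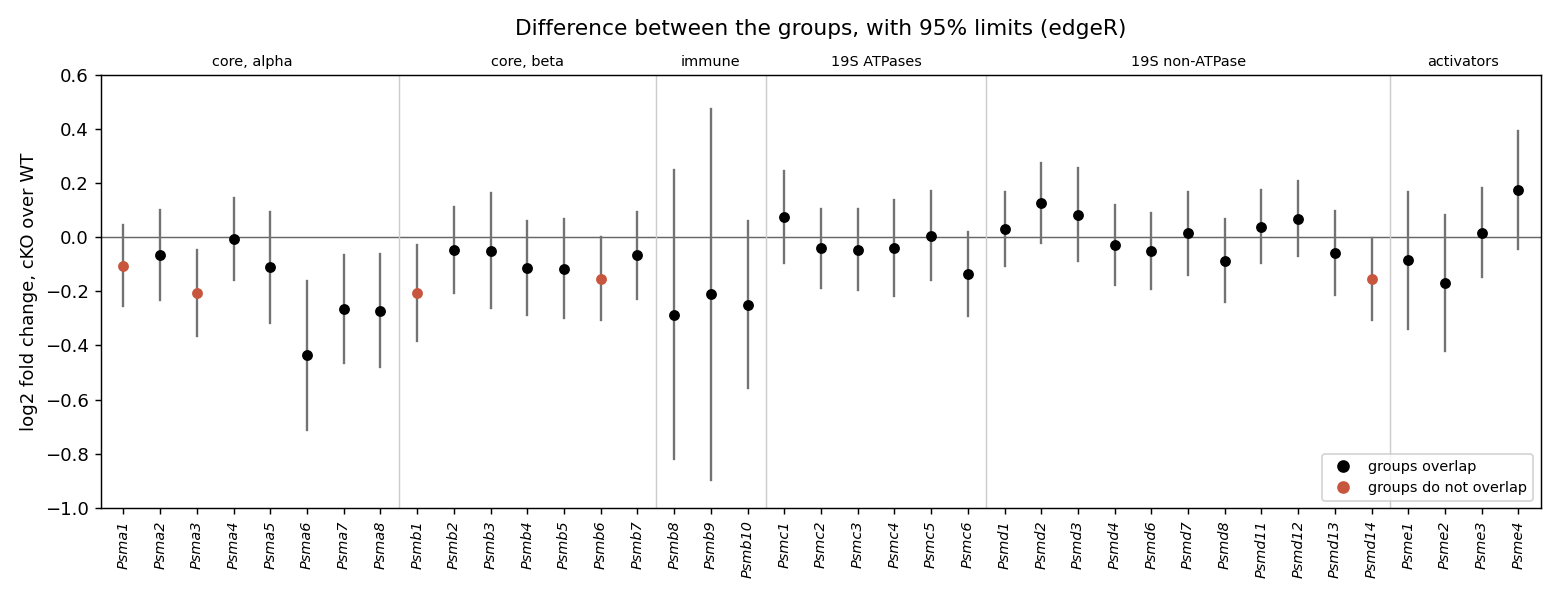
Log2 fold change of each of the 39 genes, cKO over WT (points, coloured by whether the 3 WT and 3 cKO libraries overlap), with 95% limits from edgeR (bars), ordered by role. The 8 alpha and 7 beta ring genes lie below 0 and Psma6 lies lowest, at -0.44, while the 19S genes lie on both sides of 0.

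The subunits were first compared for level, in RPKM, reads per kilobase of exon scaled to the size of the library, a scale on which genes of different length can be set side by side. The highest level was that of Psma6, an alpha ring subunit, with a mean of 437 RPKM over the 6 libraries. Psmc3, an ATPase of the cap, followed with 299 RPKM. The next were Psmd2 (119 RPKM) and Psmd8 (111 RPKM), both of the cap. The median of the 39 genes was 25.3 RPKM, and the lowest were the immune subunits Psmb8 and Psmb9, with 0.364 and 0.200 RPKM. The RNA levels of subunits of 1 ring thus differed widely, and the order of the 2 highest was the same when the longest transcript was used as the length. On that length Psmd8 (171 RPKM) lay above Psmd2 (161 RPKM).

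**Figure D2:**
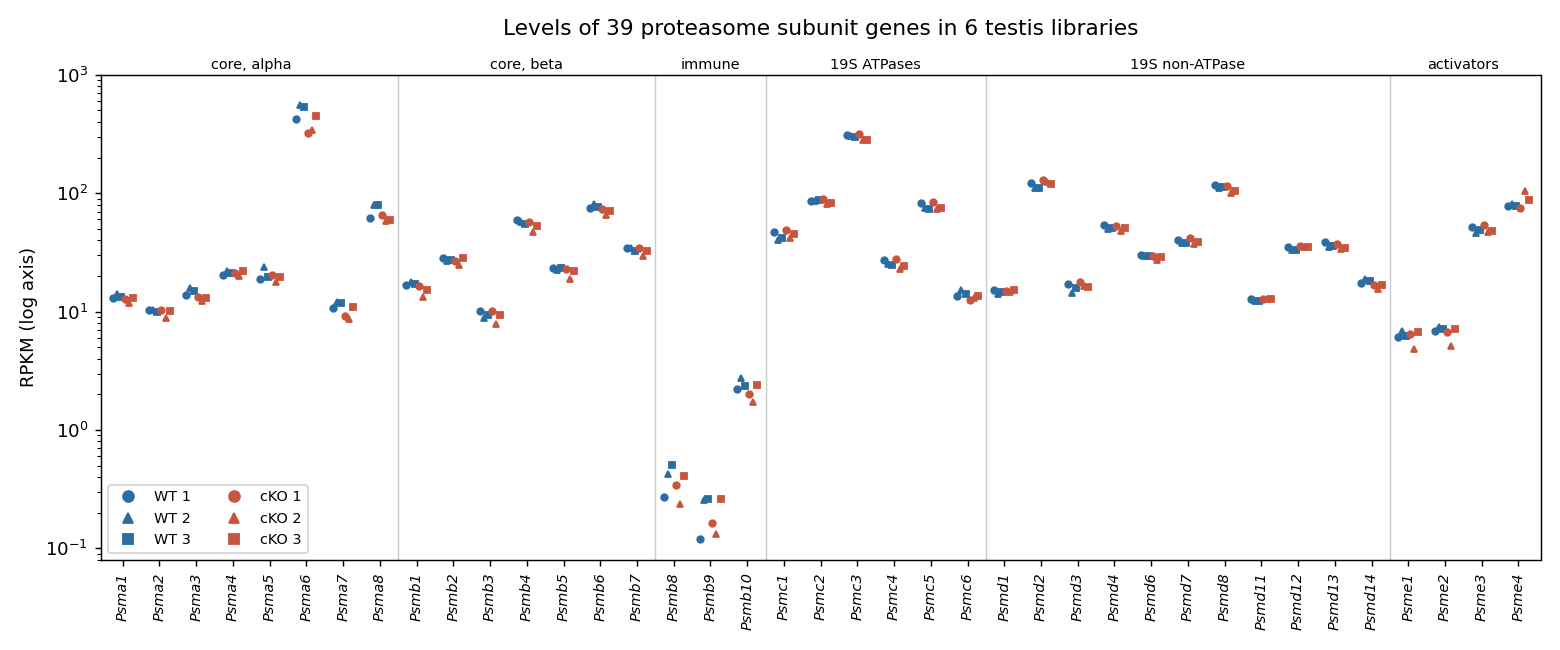
Level of each of the 39 genes in RPKM (log axis) in each of the 6 libraries, WT in blue and cKO in red, with 1 symbol shape per replicate number. Psma6 and Psmc3 stand above the other genes in each library, and the 3 immune subunits stand below them.

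In the alpha ring, all 8 genes had a negative log2 fold change, with a median of -0.16 where the median of all genes tested was 0.0031 and 49.3% of them were below 0. After a correction for GC content and transcript length 6 of the 8 stayed negative, with a median of -0.09, and without WT 2 or without cKO 2 it was 7 of 8. Psma6 had 421, 555 and 531 RPKM in WT 1, 2 and 3, and 324, 341 and 448 RPKM in cKO 1, 2 and 3. The cKO libraries 1 and 2 lay below each WT library, but cKO 3 lay above WT 1, so the groups overlapped. The log2 fold change of Psma6 was -0.44 (SE 0.13, 95% limits -0.71 and -0.16), with an edgeR adjusted p of 0.288. In DESeq2 it was -0.44 with an adjusted p of 0.0293.

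The level of Psma6 was 29.4 times the mean of the other 6 standard alpha subunits, or 20.7 times per length of the longest transcript. Only 1.299% of its 31-base words occur in transcripts of other genes. Among the other 6, that share was 60.96% for Psma5, 21.8% for Psma4 and 20.31% for Psma3. It was 8.482% for Psma2, 2.474% for Psma7 and 0.7723% for Psma1. Reads that map to several places are not in these counts, so the ratio carries that uncertainty. RefSeq gives Psma6 2 start sites on the plus strand of chromosome 12, the downstream one 14603 bases from the other, and the gene count adds their reads together. Bases upstream of each start are shown because this gene had the highest level and the largest difference of the 39. They are from RefSeq on GRCm38.p6, with CCAAT boxes on either strand in capitals. The upstream start, chr12:55383972-55384221, holds 2 such boxes. The downstream one, chr12:55398575-55398774, stops where the first annotated exon begins, short of the RefSeq start at 55398825, and holds none of the motifs searched.
Psma6, upstream start: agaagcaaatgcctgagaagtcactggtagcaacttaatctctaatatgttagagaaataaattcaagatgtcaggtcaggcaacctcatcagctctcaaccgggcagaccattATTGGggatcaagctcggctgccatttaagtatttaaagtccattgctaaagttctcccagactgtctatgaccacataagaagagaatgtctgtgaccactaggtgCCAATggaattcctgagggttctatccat
Psma6, downstream start: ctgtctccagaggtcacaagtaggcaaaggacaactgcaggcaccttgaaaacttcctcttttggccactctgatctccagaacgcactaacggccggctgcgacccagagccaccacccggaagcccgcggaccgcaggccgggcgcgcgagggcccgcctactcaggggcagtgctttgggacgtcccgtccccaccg
Which start the testis reads came from cannot be read from counts per gene.

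Psma8, the germ cell alternative to Psma7, was the second highest of the alpha genes. It had 61.7, 80.0 and 78.9 RPKM in WT 1, 2 and 3, and 65.0, 58.5 and 59.3 RPKM in cKO 1, 2 and 3. Only WT 2 and WT 3 stood above the rest, and cKO 1 lay above WT 1. The log2 fold change was -0.27 (SE 0.096, 95% limits -0.48 and -0.06), with an edgeR adjusted p of 0.305. After the correction for GC content and transcript length it was -0.20 (edgeR adjusted p = 0.491). With a library left out it ran from -0.38 without WT 1 to -0.21 without WT 2. Psma7 had 10.7, 11.98 and 11.8 RPKM in WT 1, 2 and 3, and 9.13, 8.67 and 10.9 RPKM in cKO 1, 2 and 3, where cKO 3 lay above WT 1. Its log2 fold change was also -0.27 (SE 0.092, 95% limits -0.47 and -0.07), with an edgeR adjusted p of 0.3003.

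The balance between the germ cell and the standard form did not differ beyond the spread between libraries. Psma8 made up 86.4% ± 1.04 (SD, n = 3) of the summed RPKM of Psma7 and Psma8 in the WT libraries and 86.4% ± 1.71 (SD, n = 3) in the cKO libraries, ranging from 84.5% to 87.7% with overlapping groups. With the longest transcript as the length the share was 80.3% ± 1.39 (SD, n = 3) in WT and 80.3% ± 2.30 (SD, n = 3) in cKO. Both genes share few 31-base words with other genes, 0.273% for Psma8 and 2.47% for Psma7. In bulk tissue, fewer cells of a type and less RNA per cell cannot be told apart, which holds for each difference given here.

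Psma3, which shares 20.3% of its 31-base words with other genes, had 13.8, 15.8 and 14.9 RPKM in WT 1, 2 and 3, and 13.3, 12.2 and 13.0 RPKM in cKO 1, 2 and 3. Each WT library lay above each cKO library. The log2 fold change was -0.21 (SE 0.072, 95% limits -0.36 and -0.05), and its edgeR adjusted p was 0.305. Among the remaining alpha genes, Psma1, Psma2, Psma4 and Psma5, mean levels ran from 9.98 to 21.1 RPKM and edgeR adjusted p was at least 0.507.

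In the standard beta ring, all 7 genes again had a negative log2 fold change, with a median of -0.11. After the correction for GC content and transcript length 5 of the 7 stayed negative, and without WT 1 or without cKO 2 it was 6. Of the 3 cutting subunits, Psmb6 had the highest level. It had 75.5, 81.2 and 76.4 RPKM in WT 1, 2 and 3, and 73.8, 65.0 and 70.7 RPKM in cKO 1, 2 and 3, so each cKO library lay below each WT library. Its log2 fold change was -0.15 (SE 0.070, 95% limits -0.31 and -0.00060), with an edgeR adjusted p of 0.358. After the correction for GC content and transcript length it was -0.04 (edgeR adjusted p = 0.867). The 250 bases before its start, chr11:70525107-70525356 on the plus strand (RefSeq, GRCm38.p6), end in an antioxidant response element, the site through which the transcription factor Nfe2l1 is known to raise proteasome genes. The element was in 14.3% of the promoter windows given for the subunit genes and in 12.4% of all such windows. Nfe2l1 itself was higher in the cKO libraries, without overlap (log2 fold change 0.16, SE 0.067, edgeR adjusted p = 0.323). A link between Nfe2l1 and the level of Psmb6 was not tested. The 250 bases are shown with that element and a GC box in capitals.
Psmb6: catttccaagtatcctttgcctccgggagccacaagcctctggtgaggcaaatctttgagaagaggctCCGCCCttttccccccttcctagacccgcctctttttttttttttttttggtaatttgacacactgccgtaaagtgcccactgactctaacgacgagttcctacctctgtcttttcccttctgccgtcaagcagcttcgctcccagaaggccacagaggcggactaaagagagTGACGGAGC

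Psmb5 had 23.6, 22.6 and 23.3 RPKM in WT 1, 2 and 3, and 23.1, 19.02 and 21.9 RPKM in cKO 1, 2 and 3. The low value was that of cKO 2, and the groups overlapped. The log2 fold change was -0.12 (SE 0.085, edgeR adjusted p = 0.563). It was -0.04 without cKO 2, -0.18 without cKO 1 and -0.03 after the same correction. Of the 31-base words of Psmb5, 71.7% also occur in transcripts of other genes, and reads that map to several places are not in these counts, so its level carries that uncertainty. Psmb7 had 34.5, 34.6 and 32.3 RPKM in WT 1, 2 and 3, and 34.6, 29.7 and 32.5 RPKM in cKO 1, 2 and 3, with overlapping groups (log2 fold change -0.07, SE 0.073, edgeR adjusted p = 0.720). It was -0.0097 without cKO 2, -0.12 without cKO 1, -0.11 without WT 3 and -0.03 after the correction. Psmb7 overlaps exons of Nek6 on the opposite strand. Of the 4 other beta genes, which cut nothing themselves, Psmb1 had groups that did not overlap (log2 fold change -0.21, SE 0.081, edgeR adjusted p = 0.313, or -0.13 without cKO 2), and Psmb2, Psmb3 and Psmb4 had adjusted p of at least 0.552.

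The immune beta subunits were scarce in each of the 6 libraries. Psmb8, the counterpart of Psmb5, had 54, 93 and 106 reads in WT 1, 2 and 3, and 84, 45 and 80 in cKO 1, 2 and 3. Psmb9, the counterpart of Psmb6, had 26, 61 and 60 reads in the WT libraries and 44, 27 and 56 in the cKO libraries. Psmb10, the counterpart of Psmb7, had 223, 303 and 249 reads in the WT libraries and 251, 165 and 240 in the cKO libraries. The groups overlapped for all 3 genes. Their log2 fold changes were -0.29 (SE 0.24), -0.21 (SE 0.31) and -0.25 (SE 0.14), with edgeR adjusted p of 0.629, 0.811 and 0.4503. Single libraries moved these values: Psmb8 ran from -0.49 without WT 1 to -0.10 without WT 3, Psmb9 from -0.52 without cKO 3 to -0.03 without cKO 2, and Psmb10 from -0.38 without cKO 3 to -0.14 without cKO 2. The 95% limits ran from -0.82 to 0.25 for Psmb8, from -0.90 to 0.48 for Psmb9 and from -0.56 to 0.06 for Psmb10. These libraries thus fix neither the size nor the direction of the difference for any of the 3 genes.

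Within each standard and immune pair the immune form took a small share of the summed RPKM. Psmb8 made up 1.70% ± 0.505 (SD, n = 3) of the pair with Psmb5 in WT and 1.502% ± 0.295 (SD, n = 3) in cKO. Psmb9 made up 0.273% ± 0.0991 (SD, n = 3) of the pair with Psmb6 in WT and 0.265% ± 0.0909 (SD, n = 3) in cKO. Psmb10 made up 6.72% ± 0.644 (SD, n = 3) of the pair with Psmb7 in WT and 5.97% ± 0.806 (SD, n = 3) in cKO. The groups overlapped for each pair. With the longest transcript as the length the share of Psmb8 was 2.97% in WT and 2.63% in cKO, and with unstranded counts that of Psmb10 was 11.3% in WT and 10.2% in cKO. Psmb8 and Psmb9 overlap exons of Gm20496 and Tap1 on the opposite strand.

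The 4 marker genes of dendritic cells and antigen presentation were Cd74, H2-Aa, H2-Ab1 and Itgax, of which 3 had a negative log2 fold change. Their summed level was 23.6, 35.3 and 30.8 CPM, the counts-per-million scale without length, in WT 1, 2 and 3, and 23.2, 24.5 and 30.6 CPM in cKO 1, 2 and 3. The summed level of Psmb8, Psmb9 and Psmb10 was 5.15, 7.04 and 6.68 CPM in the WT libraries and 5.19, 4.24 and 6.44 CPM in the cKO libraries. Both sums were highest in WT 2, WT 3 and cKO 3. The 8 macrophage genes summed to 116 to 130 CPM in WT and 117 to 130 CPM in cKO. The 5 T and NK cell genes summed to 1.92 to 2.47 CPM in WT and 1.80 to 2.53 CPM in cKO, and the 3 B cell genes to 0.868 to 0.971 CPM in WT and 0.617 to 0.983 CPM in cKO. Of these, the B cell gene Cd79a had 1 to 3 reads in a library and the T cell gene Cd3g had 1 to 6. The part of these cells in the immune subunit values was not tested.

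In the 19S cap the signs were mixed. Of its 17 genes, 9 had a negative and 8 a positive log2 fold change, with a median of -0.03 over values from -0.16 to 0.13. The balance moved with single libraries, from 7 negative without WT 1 or without cKO 2 to 11 without WT 2, WT 3 or cKO 1. The 6 ATPases, which form the ring that unfolds the substrate, had mean levels from 13.7 RPKM for Psmc6 to 299 RPKM for Psmc3. Psmc3 was 6.08 times the mean of the other 5 per length, or 7.01 times per length of the longest transcript. It had 311, 303 and 297 RPKM in WT 1, 2 and 3, and 318, 281 and 284 RPKM in cKO 1, 2 and 3, with a log2 fold change of -0.05 (SE 0.069, edgeR adjusted p = 0.811). The lowest adjusted p of the 6 ATPases was 0.417, for Psmc6. Psmc3 overlaps exons of Slc39a13 on the opposite strand. Of the 31-base words of Psmc1, 32.19% also occur in other genes, so its level and the ratio carry that uncertainty. That share was 10.53% for Psmc2, 5.867% for Psmc3, 0.7502% for Psmc6 and 0% for Psmc4 and Psmc5.

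Of the 11 non-ATPase subunits, 5 had a negative and 6 a positive log2 fold change. Psmd14, the enzyme that removes ubiquitin chains before degradation, had 17.3, 18.9 and 18.3 RPKM in WT 1, 2 and 3, and 16.7, 15.5 and 16.8 RPKM in cKO 1, 2 and 3. Each cKO library lay below each WT library (log2 fold change -0.16, SE 0.069, edgeR adjusted p = 0.350), and the value was -0.06 after the correction for GC content and transcript length. Psmd2, a scaffold at the base of the cap, had 122, 110 and 111 RPKM in WT 1, 2 and 3, and 129, 124 and 120 RPKM in cKO 1, 2 and 3. The WT 1 value lay above that of cKO 3, so the groups overlapped, and the log2 fold change was 0.13 (SE 0.068, 95% limits -0.02 and 0.28, edgeR adjusted p = 0.422). Of its 31-base words 31.6% also occur in other genes. Psmd12, of the lid of the cap, had 35.3, 33.1 and 33.2 RPKM in the WT libraries and 35.8, 35.3 and 35.4 RPKM in the cKO libraries, with WT 1 above cKO 2 by a small margin (log2 fold change 0.07, SE 0.063, edgeR adjusted p = 0.661, or 0.11 after the correction and 0.04 without WT 3).

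Among the 4 activators the signs were also mixed. Psme4, which encodes PA200, had the highest level of the 4, with 78.5, 80.7 and 78.6 RPKM in WT 1, 2 and 3, and 75.2, 105 and 88.4 RPKM in cKO 1, 2 and 3. The WT libraries lay close together, while cKO 1 lay below them and cKO 2 and 3 above. The log2 fold change of Psme4 was 0.17 (SE 0.100, 95% limits -0.04 and 0.39), with an edgeR adjusted p of 0.455. It was 0.05 without cKO 2 and 0.28 without cKO 1 (edgeR adjusted p = 0.856 and 0.0764), and 0.07 after the correction for GC content and transcript length. The cKO 2 library, the lowest for 28 of the 39 genes, was thus the highest for Psme4.

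Psme3, which encodes the nuclear PA28 gamma, had 51.7, 46.4 and 48.8 RPKM in WT 1, 2 and 3, and 54.0, 47.1 and 47.6 RPKM in cKO 1, 2 and 3. The groups overlapped, and the log2 fold change was 0.02 (SE 0.075, edgeR adjusted p = 0.941), or -0.01 when libraries were scaled by their totals alone. Psme1 and Psme2 encode the alpha and beta subunits of the interferon-induced PA28. Psme1 had 6.11, 6.82 and 6.21 RPKM in WT 1, 2 and 3, and 6.42, 4.84 and 6.77 RPKM in cKO 1, 2 and 3 (log2 fold change -0.09, SE 0.12, edgeR adjusted p = 0.784). Psme2 had 6.80, 7.35 and 7.16 RPKM in WT 1, 2 and 3, and 6.67, 5.09 and 7.17 RPKM in cKO 1, 2 and 3 (log2 fold change -0.17, SE 0.12, edgeR adjusted p = 0.535). Both were lowest in cKO 2, and without that library the log2 fold change of Psme1 was 0.05 and that of Psme2 was -0.04. Psme2 was -0.27 without cKO 3 and -0.06 after the correction for GC content and transcript length. Psme2 shares 33.5% of its 31-base words with other genes, most of all Psme2b.

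The pattern over libraries was then set out for all members. For each gene the log2 level in a library was set against its mean over the 6 libraries. The median of these deviations over the 39 genes was 0.04, 0.03 and 0.01 in WT 1, 2 and 3, and 0.04, -0.13 and -0.01 in cKO 1, 2 and 3. Over all genes tested the same median stayed between -0.0077 and 0.0048. The low median of cKO 2 held in each role group, from -0.07 for the non-ATPase subunits to -0.32 for the immune subunits. It was not particular to the proteasome genes. The cKO 2 median was -0.21 for Leydig cell markers, -0.17 for Sertoli cell markers and -0.16 for elongating spermatid markers, each the lowest of the 6 libraries. In other lists cKO 2 was not the lowest, as with 0.0021 for spermatocyte markers and 0.07 for endothelial markers. Over the 39 genes the median log2 fold change was -0.07, with 29 of 39 negative. Without cKO 2 it was -0.01 with 24 negative, and without cKO 1 it was -0.12 with 32 negative.

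**Figure D3:**
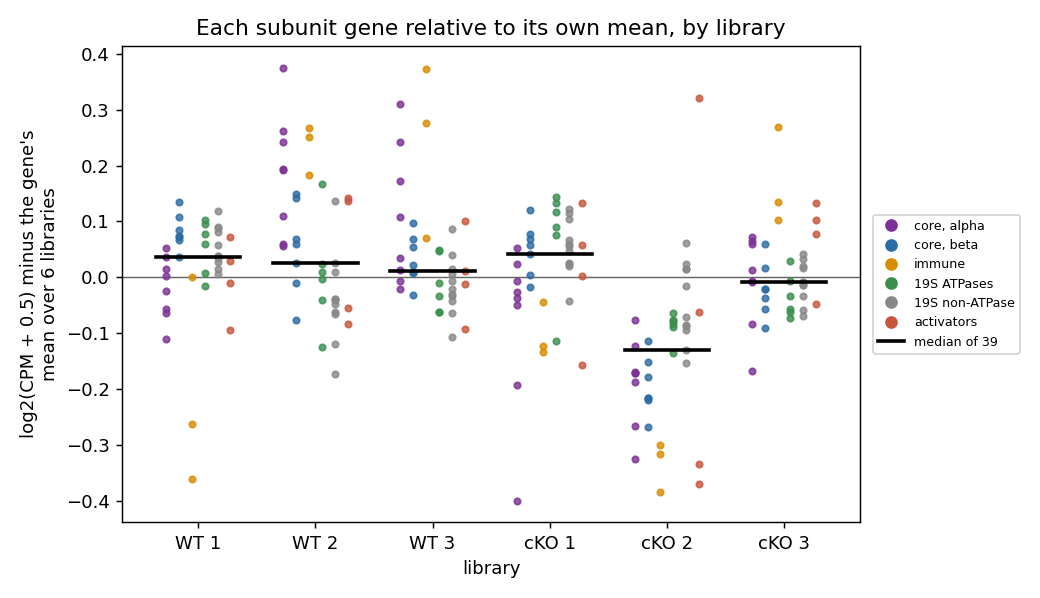
Deviation of each of the 39 genes from its own mean over the 6 libraries, as log2(CPM + 0.5), by library and coloured by role, with the median as a black bar. In cKO 2, 34 of the 39 points lie below 0 and the median is -0.13. Psme4 lies at the top there, and Psmd2, Psmd3, Psmd11 and Psmd12 also lie above 0.

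The genes were also split by transcript length. The 19 genes whose longest transcript was below the median of 1907 bases had a median log2 fold change of -0.11 with 16 negative, and the other 20 had -0.06 with 13 negative. After the correction for GC content and transcript length these medians were -0.0094 and -0.03, the median of the 14 standard core genes went from -0.11 to -0.03, and 10 of those 14 stayed negative.

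Markers of the germ cell stages were set beside the subunits, since germ cells make up most of the adult testis. The 8 round spermatid genes summed to 1197, 1380 and 1278 CPM in WT 1, 2 and 3, and to 1155, 1135 and 1149 CPM in cKO 1, 2 and 3, without overlap. The 8 elongating spermatid genes summed to 19114, 18712 and 20487 CPM in the WT libraries and to 19269, 16189 and 18316 CPM in the cKO libraries, with overlap and the lowest value in cKO 2. The 8 spermatocyte genes summed to 1939 to 1972 CPM in WT and 1940 to 2049 CPM in cKO. The 8 Sertoli cell genes summed to 1401 to 1689 CPM in WT and 1423 to 1854 CPM in cKO, and 7 of the 8 had a positive log2 fold change. The 4 endothelial genes, all with a positive value, summed to 18.5 to 19.8 CPM in WT and 20.3 to 23.9 CPM in cKO, without overlap. In the elongating spermatid list 5 of 8 genes had a negative log2 fold change, from -0.40 for Tnp1 to 0.10 for Smcp, and in the spermatocyte list 3 of 8, from -0.12 for Sycp3 to 0.14 for Sycp1. All 8 round spermatid genes had a negative value. The part of these cell types in the subunit values was not tested.

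**Figure D4:**
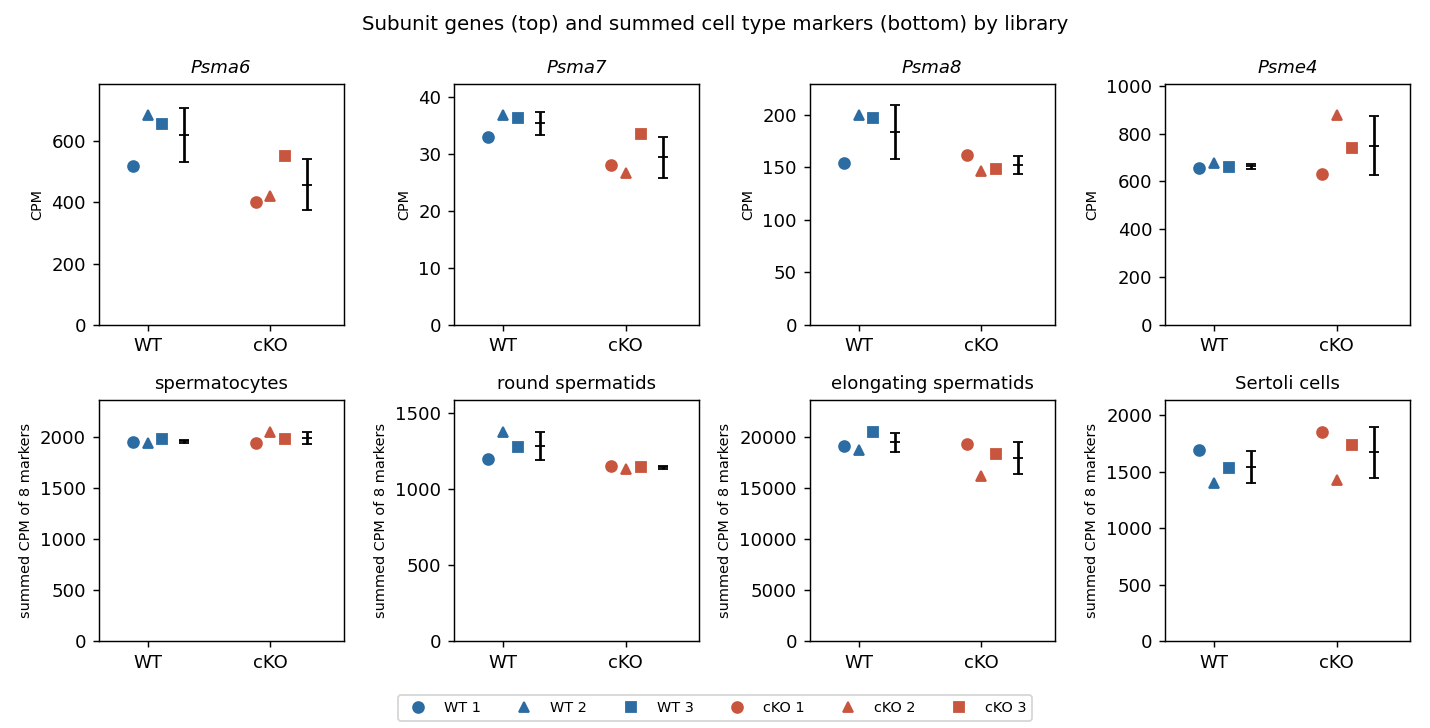
Level in CPM of the subunit genes Psma6, Psma7, Psma8 and Psme4 (top) and the summed CPM of 8 markers each of spermatocytes, round spermatids, elongating spermatids and Sertoli cells (bottom) in each library, with the mean and SD of each group (n = 3). The round spermatid sum is at least 1197 in each WT library and at most 1155 in each cKO library, the other sums overlap, and Psme4 is highest in cKO 2.

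Other genes of the pathway (assembly chaperones, regulators, ubiquitin genes and shuttles that carry tagged proteins to the proteasome) gave 44 genes of a list of 45, of which 43 were tested. No gene of the list passed an edgeR adjusted p of 0.05. At an unadjusted p under 0.05, 4 were higher and 2 lower, where 7.33% and 6.54% of all genes tested were, and 22 of the 43 had a negative log2 fold change. The groups did not overlap for 6 genes that were higher and 4 that were lower, where 2201 and 1938 of all 21902 genes tested were. Uba6, an enzyme that activates ubiquitin, had 41.3, 39.6 and 40.6 CPM in WT 1, 2 and 3, and 45.8, 49.7 and 50.7 CPM in cKO 1, 2 and 3, without overlap (log2 fold change 0.27, SE 0.068, edgeR adjusted p = 0.276). Without cKO 1 it passed the threshold (edgeR adjusted p = 0.0346, log2 fold change 0.31). The share of all genes called in that setting is not given here, so this call has no background to be set against. Ubqln2, a shuttle, and Ecpas, which binds the 26S proteasome, also had higher cKO libraries without overlap (log2 fold changes 0.23 and 0.17, edgeR adjusted p = 0.306 and 0.323), and Ecpas was 0.05 after the correction for GC content and transcript length.

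Lower values were seen for Rps27a, a gene that makes ubiquitin fused to a ribosomal protein (log2 fold change -0.25, edgeR adjusted p = 0.305), where cKO 3 lay above WT 1 and the groups overlapped. Rps27a was -0.10 after the correction and -0.15 without WT 2. Ddi1, a protease of the shuttle family, had 227, 249 and 251 CPM in WT 1, 2 and 3, and 214, 206 and 221 CPM in cKO 1, 2 and 3, without overlap (log2 fold change -0.18, edgeR adjusted p = 0.306). Pomp, the chaperone that helps the core mature, had a log2 fold change of -0.16 without overlap (edgeR adjusted p = 0.386), or -0.09 without cKO 2. The thymus subunit Psmb11 had 1 to 3 reads in a library and was not tested.

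Promoter windows from 250 bases before to 50 after a RefSeq start (GRCm38.p6) were given for 32 of the 39 genes, in 35 windows. Psma8, Psmb1, Psmb2, Psmb7, Psmc3, Psmd3 and Psmd7 had no window and were not searched. The antioxidant response element TGACNNNGC, searched on both strands, occurred in 14.3% of these windows and in 12.4% of all 32851. The genes with it were Psmb5, Psmb6, Psmc6, Psmd12 and Psme4. The GC box GGGCGG was in 57.1% of the windows of the 39 genes and in 35.7% of all, and CCAAT in 34.3% and 37.4%. The interferon-stimulated response element, taken as GAAA, any pair of bases and GAAA again, was in 3 windows, those of Psmb3, Psmd4 and Psme1 (8.57%, against 3.44% of all). The cAMP response element TGACGTCA was in 0 of the 35 and in 1.79% of all. Where these motifs share bases, each was counted, and a match is a description of the letters only.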

How the data were processed

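Whole testes of 6 mice were profiled by RNA sequencing of total RNA with single-end reads, per the labels. The deposited values are raw counts of reads per gene in the layout of STAR's gene counts. The submitters' processing notes name STAR, HTSeq and DESeq2, without versions, and the build mm10. The annotation release is not given in the sources used here. That layout counts reads that map to 1 place. Opposite-strand counts (96.0% to 96.2% of the strand columns) were used. Lines that total reads outside single genes (14.8% to 16.7% of reads) were left out. Libraries held 56991431 to 73766444 assigned reads. GENCODE M21 matched 52147 of 53700 identifiers. Members and lists were chosen with earlier results of these data known.

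The test was edgeR 4.0.16 in R 4.3.3: the quasi-likelihood F test after TMM scaling. filterByExpr (minimum count 10) kept 21902 genes, whose p-values were adjusted by Benjamini-Hochberg, and 0.05 was the threshold. Standard errors and 95% limits came from the F statistic. RPKM and CPM were computed here from the counts, with union exon length and TMM-scaled library sizes. By rule, values by library were given for Psma7, Psma8, Psmb5 to Psmb10, the activators and the 3 members with the lowest p in each direction, and of the pathway list the 3 lowest p in each direction were named. Psmc3, Psmd14 and Nfe2l1 were added after their values were seen. The alternatives were RLE scaling, library totals, no filter, at least 10 reads in every library, unstranded counts, a replicate block, robust fitting, DESeq2 1.42.0, a loess correction (span 0.3) for GC content and transcript length, each library left out, and the longest transcript as length. The procedure was tested on simulated data. Of 45 pathway genes, 1 (Paaf1) was not matched and not analysed here.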

Additional observations from a re-analysis of the deposited data

How the results depend on the processing

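The count of proteasome subunit genes past an adjusted p of 0.05, 0 with edgeR and all 6 libraries, was 2 without a filter on low counts (Psma6, adjusted p = 4.7e-06, and Psma8, adjusted p = 0.0270, log2 fold change -0.28), 1 with a replicate block (Psma6, adjusted p = 0.0472) and 1 with DESeq2 (Psma6, adjusted p = 0.0293). These settings called 2.07%, 0.224% and 1.64% of all genes tested, and the cause was not tested. WT and cKO libraries of the same number had deviations across genes that correlated at 0.38, 0.26 and -0.07. Number 3 did not correlate best with itself, the numbers were not treated as a pairing, and the block changed no other call among the subunit genes. With each library left out in turn, the count of subunit genes called stayed 0 and that of pathway genes ran from 0 to 1. The share of all genes called in those settings is not given here. The count of subunit genes lower at an unadjusted p under 0.05 ran from 2 to 8, that of genes higher from 0 to 1 (also 1 without a filter), and the median log2 fold change of the 39 from -0.12 to -0.01. Psme1 ran from -0.178 to 0.0469 and Psme3 from -0.0495 to 0.0590, changing sign without cKO 2 for Psme1 and without WT 2 or cKO 1 for Psme3 (-0.0203 and -0.0495), as Psme3 also did with library totals alone (-0.0098). Psma6, Psma7 and Psma8 stayed negative in all 15 alternatives, Psma6 from -0.59 to -0.31. Msl3 ran from -0.18 to -0.04 with a library left out. The share of Psma8 in its pair was 80.3% with the longest transcript as the length. The lowest count of a subunit gene in a library was 26 reads, for Psmb9.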
